A study of Capra hircus with 2 samples.

Results

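A set of 8 extracellular matrix genes, of the 27137 genes in the deposited table, were followed across the cells of cashmere goat skin. They are DCN (decorin), LUM (lumican), BGN (biglycan), VCAN (versican), POSTN (periostin), FBLN2 (fibulin 2), MFAP5 (microfibril-associated protein 5) and CCDC80, taken by their gene symbols, and all 8 were found and had UMIs in both libraries. The question was which of them were fibroblast genes and which, among them BGN and POSTN, were counted mainly in keratinocytes. The 2 roles had been proposed with earlier results of these data known, so the levels below are descriptions without a test.

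The small leucine-rich proteoglycans decorin, lumican and biglycan are short core proteins that bind collagen fibrils, and decorin and biglycan carry glycosaminoglycan chains. Versican is a large chondroitin sulfate proteoglycan that binds hyaluronan and is a well-known product of the dermal papilla, the cluster of specialised dermal cells at the base of the hair follicle. Periostin is a secreted glycoprotein of the matrix around cells, while fibulin 2 and the MFAP5 protein belong to elastic fibres and their microfibrils. In skin the dermal fibroblast is the textbook source of most of these proteins, and keratinocytes of the epidermis and follicle contribute to the basement membrane zone.

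Skin over the shoulder blade of 2 healthy Liaoning cashmere goats (Capra hircus) in anagen, the growth phase of the follicle, was freed of blood and fat, dissociated and cleared of red and dead cells, and each goat gave 1 single-cell library by the 10x Chromium 3' kit (V3). One goat was of the coarse cashmere type (CT-LCG) and the other of the fine type (FT-LCG), with no treatment of either. The library of each cell was taken from the deposited table of cells, because the sample labels do not give the fibre type. The sources used here give neither age nor sex.

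Counts are of unique molecular identifiers (UMIs), each standing for 1 captured RNA molecule. CT-LCG had 3443 kept cells with a median of 2314 UMIs, and FT-LCG had 9608 kept cells with a median of 6121.5 UMIs. A level is the summed UMIs of a gene per 10000 summed UMIs of all genes, taken over all cells that a cluster has in 1 library, with an exact Poisson 95% interval. Shares of cells have exact binomial (Clopper-Pearson) 95% intervals, and both kinds cover counting error only. Fibre type, goat and library cannot be told apart, so no test between CT-LCG and FT-LCG was possible and no p-value is given. There were 11 barcode sequences that both libraries held among their kept cells.

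The kept cells fell into 19 clusters, made without the 8 genes and without the other matrix genes listed below. One cluster, with 101 cells of CT-LCG and 138 of FT-LCG, was called fibroblast-like and was led by COL1A1, COL1A2 and COL3A1, and all 11 of its fibroblast markers had UMIs in both libraries. Keratinocyte transcripts were also counted in it. A list of 16 keratinocyte markers summed to 39.5 UMIs per 10000 in CT-LCG (15 of 16 with a UMI) and 107 in FT-LCG (16 of 16), against 118 and 189 for the fibroblast list. Dermal papilla markers summed to 26.9 in CT-LCG, with CORIN and SOX2 at 0, and to 6.76 in FT-LCG, with RSPO2 at 0. The fibroblast-like cells of the 2 libraries therefore were not the same mixture, and each comparison of libraries below is given with that in view. A keratinocyte class joined 13 clusters of epidermis and follicle with 3042 CT-LCG and 8955 FT-LCG cells.

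Of the 8 genes, 5 were highest in the fibroblast-like cluster: DCN, LUM, VCAN, MFAP5 and CCDC80. The share of all genes highest in that cluster was not counted, so this only describes the 8. BGN was highest in outer root sheath or bulge-like cells, POSTN in basal epidermal-like cells, and FBLN2 in endothelial-like cells of CT-LCG but in fibroblast-like cells of FT-LCG. Against the keratinocyte class, 7 of the 8 were at least 4 times higher in fibroblast-like cells in CT-LCG, all but POSTN, where 10.7% of 11566 genes were. In FT-LCG 6 of the 8 passed the same fold, with BGN and POSTN below it, where 10.2% of 13583 genes did. None of the 8 was 4 times higher in the keratinocyte class, as 4.12% of genes in CT-LCG and 1.63% in FT-LCG were.

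**Figure D1:**
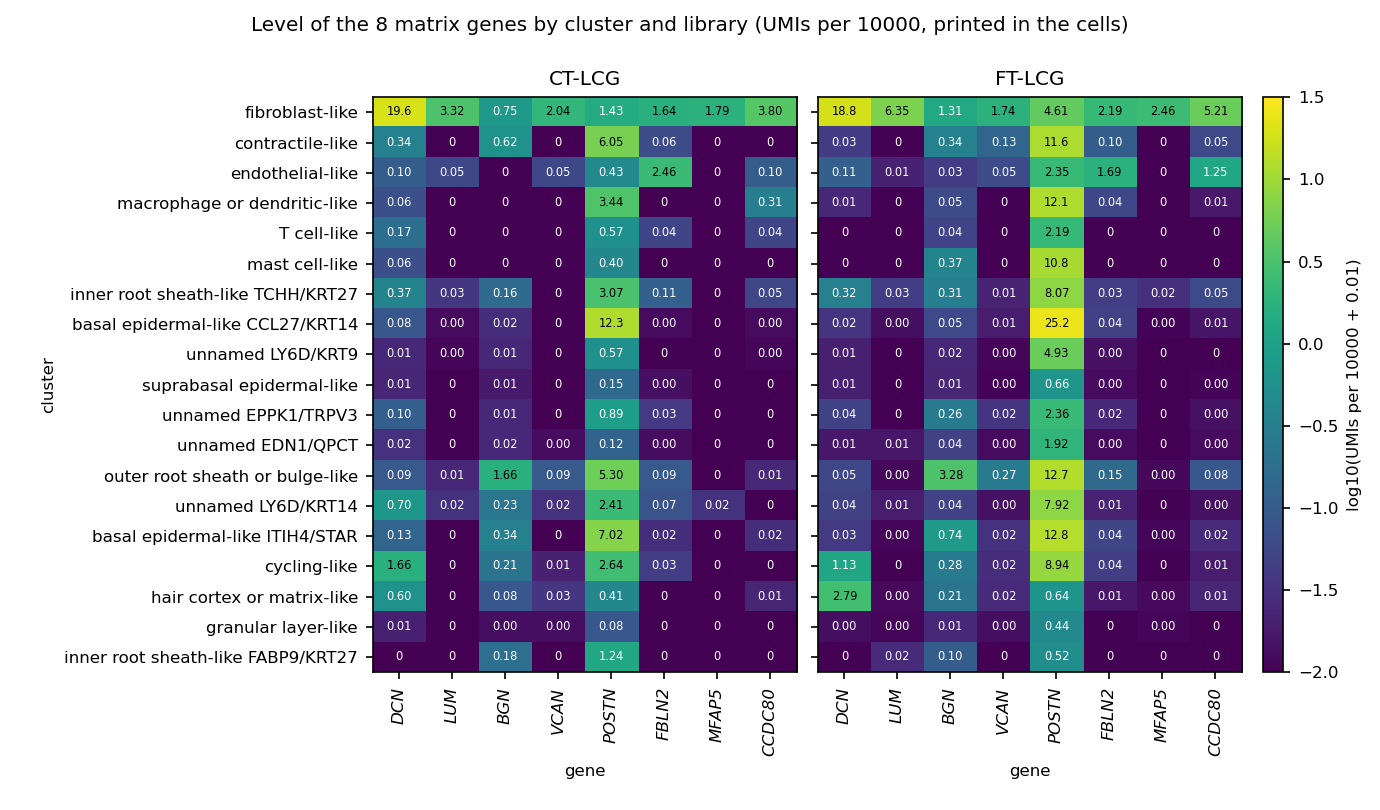
Level of each gene (columns) in each of the 19 clusters (rows) in CT-LCG (left) and FT-LCG (right), in UMIs per 10000 UMIs, printed in the cells and coloured on a log10 scale with 0.01 added; 0 means no UMI and 0.00 a level that rounds to it. DCN reached 19.6 and 18.8 in the fibroblast-like row, while POSTN had its highest level, 12.3 and 25.2, in the row of CCL27/KRT14 basal cells.

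DCN, which binds collagen fibrils and several growth factors, had 942 UMIs in the fibroblast-like cells of CT-LCG, a level of 19.6 (18.3 to 20.9), and 1223 UMIs in those of FT-LCG, a level of 18.8 (17.8 to 19.9). The intervals of the libraries overlapped. The DCN level in the keratinocyte class was 0.13 in CT-LCG and 0.28 in FT-LCG, so that fibroblast-like cells were 150 and 67 times higher. These cells nevertheless held only 72.5% of the DCN UMIs of CT-LCG and 34.6% of those of FT-LCG. Most of the rest was in cycling and hair cortex or matrix-like cells, with 15.1% and 59.0%. The keratinocyte class, which includes them, held 26.4% and 65.0%.

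LUM, a keratan sulfate proteoglycan of collagen-rich tissue, stayed with the fibroblast-like cells. Its level there was 3.32 (2.83 to 3.88) in CT-LCG from 160 UMIs and 6.35 (5.75 to 6.99) in FT-LCG from 412 UMIs. Only 7 CT-LCG and 25 FT-LCG UMIs were in the keratinocyte class, and the fibroblast-like cluster held 95.2% and 94.1% of all LUM UMIs. In the goat RefSeq annotation used for names (assembly ARS1.2), LUM and DCN are neighbouring genes between KERA and BTG1. The neighbours parted in hair cells. There were 17.0 LUM UMIs per 100 DCN UMIs in fibroblast-like cells of CT-LCG and 33.7 in those of FT-LCG. The main cycling-like cluster, a mixture that is divided below, had 0 LUM UMIs against 150 and 868 of DCN. In hair cortex or matrix-like cells, LUM had no UMI (CT-LCG) and 1 UMI (FT-LCG), against 46 and 1215 of DCN.

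BGN, the closest relative of decorin among the 8, was not led by fibroblasts. Outer root sheath or bulge-like cells, follicle keratinocytes led by SFRP1 and KRT6A, had a level of 1.66 (1.37 to 1.99) in CT-LCG and 3.28 (3.13 to 3.44) in FT-LCG, from 115 and 1776 UMIs. In fibroblast-like cells it was 0.75 (0.52 to 1.04) and 1.31 (1.05 to 1.62), from 36 and 85 UMIs. Outer root sheath or bulge-like cells were therefore 2.21-fold higher in CT-LCG (1.51 to 3.32) and 2.51-fold higher in FT-LCG (2.02 to 3.15). The order was the same in both libraries, and the intervals of the 2 clusters did not overlap in either.

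Among keratinocytes BGN was uneven in the basal layer and in the follicle alike. Against the CCL27/KRT14 basal cluster, outer root sheath or bulge-like cells were 86.8 times higher in CT-LCG and 67.7 times higher in FT-LCG. A second basal cluster, led by ITIH4 and STAR, had a BGN level of 0.34 (0.20 to 0.53) and 0.74 (0.67 to 0.81), from 18 and 496 UMIs. Other follicle clusters were lower than the outer root sheath or bulge-like cells: TCHH/KRT27 inner root sheath-like cells had 0.16 and 0.31, FABP9/KRT27 inner root sheath-like cells 0.18 and 0.10, and hair cortex or matrix-like cells 0.08 and 0.21. The 11 fibroblast markers together gave these follicle cells 0.072 UMIs per 10000 in CT-LCG (3 of 11 with a UMI) and 0.51 in FT-LCG (6 of 11), against 118 and 189 in the fibroblast-like cluster. Counted over all kept cells, 81.9% of the BGN UMIs of CT-LCG and 96.1% of those of FT-LCG were in the keratinocyte class, with 44.2% and 58.5% in outer root sheath or bulge-like cells alone. The class also held 3042 of the 3443 CT-LCG cells and 8955 of the 9608 FT-LCG cells. Its BGN level, 0.08 and 0.36, was no more than about that of all kept cells, 0.09 and 0.36. The share of the whole class therefore largely follows its size. Because the class average takes in many clusters with little BGN, the fibroblast-like cells were still 9.24 times above it in CT-LCG and 3.66 times in FT-LCG. On the log2 scale these ratios were 3.21 (2.66 to 3.72) and 1.87 (1.54 to 2.18). The TCHH/KRT27 inner root sheath-like cells, with BGN at 0.16 and 0.31, had the lowest median depths of all clusters, 1073 and 1119 UMIs. In the barcodes that were not kept, BGN was at 0.26 (0.19 to 0.34) in CT-LCG and 0.43 (0.31 to 0.58) in FT-LCG. The part of free RNA in the BGN of these cells and of the other keratinocyte clusters was not tested.

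POSTN was the gene of the 8 that keratinocytes as a class had at a higher level than fibroblast-like cells. Its level was 2.47 in the keratinocyte class and 1.43 (1.12 to 1.81) in fibroblast-like cells of CT-LCG, and 8.59 and 4.61 (4.10 to 5.16) in FT-LCG. The log2 ratio of fibroblast-like to keratinocyte cells was -0.79 (-1.15 to -0.44) in CT-LCG and -0.90 (-1.07 to -0.74) in FT-LCG, 1.72 and 1.87 times higher in keratinocytes. Basal cells led: the CCL27/KRT14 cluster had 12.3 (11.9 to 12.6) in CT-LCG and 25.2 (24.9 to 25.4) in FT-LCG, from 4498 and 35799 UMIs. That was 8.55 times (6.74 to 11.0) and 5.46 times (4.87 to 6.14) the fibroblast-like level.

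POSTN was lower in the clusters of the upper epidermis. The ITIH4/STAR basal cluster had 7.02 and 12.8, and outer root sheath or bulge-like cells had 5.30 and 12.7, with overlapping intervals in FT-LCG. Suprabasal epidermal-like cells had 0.15 and 0.66, and the granular layer-like cluster, the outermost living layer, had 0.08 and 0.44. Both basal clusters together held 72.0% of the POSTN UMIs of CT-LCG and 60.7% of those of FT-LCG, while fibroblast-like cells held 1.02% and 0.41%. Immune cells also had POSTN: macrophage or dendritic-like cells stood at 3.44 (CT-LCG) and 12.1 (FT-LCG), beside a keratinocyte list that summed to 54.8 and 426 UMIs per 10000 in them. Per 100 UMIs of KRT14, the keratin of basal cells, POSTN had 5.59 and 7.77 UMIs in CCL27/KRT14 basal cells, 24.1 and 5.24 in macrophage or dendritic-like cells, and 28.8 and 11.8 in fibroblast-like cells. The part of free keratinocyte RNA in the POSTN of stromal and immune cells was not tested.

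**Figure D2:**
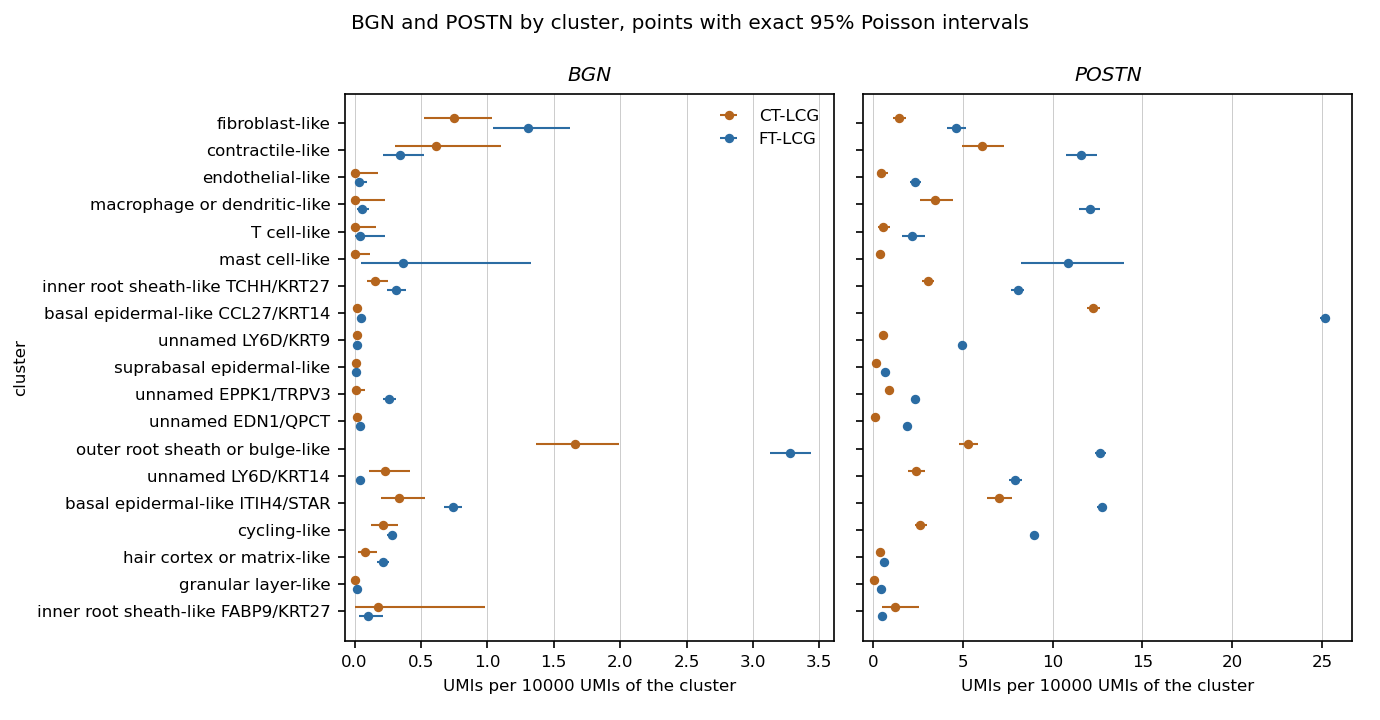
Levels of BGN (left) and POSTN (right) in UMIs per 10000 UMIs (linear horizontal axes from 0) for each cluster, with CT-LCG in orange and FT-LCG in blue; points are levels and bars exact Poisson 95% intervals. BGN peaked in outer root sheath or bulge-like cells at 1.66 and 3.28, and POSTN in CCL27/KRT14 basal cells at 12.3 and 25.2.

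VCAN had 98 UMIs in fibroblast-like cells of CT-LCG, a level of 2.04 (1.65 to 2.48), and 113 in those of FT-LCG, a level of 1.74 (1.43 to 2.09), with overlapping intervals. Outer root sheath or bulge-like cells came next with 0.09 (0.03 to 0.19) and 0.27 (0.23 to 0.32), and fibroblast-like cells were 23.6 times and 6.45 times higher. These follicle cells, 95 of CT-LCG and 676 of FT-LCG, held 5.41% and 42.8% of the VCAN UMIs, and their VCAN level was 3.12 times higher in FT-LCG. The keratinocyte class as a whole held 10.8% and 63.0%, but its VCAN level, 0.005 and 0.026, was below that of all kept cells, 0.040 in each library.

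FBLN2 had its highest levels in fibroblasts and vessels. In endothelial-like cells it had 51 UMIs in CT-LCG, a level of 2.46 (1.83 to 3.23), and 158 in FT-LCG, a level of 1.69 (1.44 to 1.98). In fibroblast-like cells it had 79 and 142 UMIs, levels of 1.64 (1.30 to 2.05) and 2.19 (1.84 to 2.58). The ratio of endothelial-like to fibroblast-like cells was 1.5 (1.03 to 2.16) in CT-LCG and 0.77 (0.61 to 0.98) in FT-LCG. The order of these whole clusters therefore turned between the libraries. In both libraries FBLN2 was at 0.15 or below in every other cluster. The fibroblast-like cluster was a mixture. A fibroblast-like sub-cluster within it, described below, had 60 FBLN2 UMIs of 53281 in CT-LCG and 135 of 153865 in FT-LCG. In each library that was a higher level than in endothelial-like cells, from 9 and 41 cells. Counted over all kept cells, the low levels of the many keratinocytes still made up 19.0% of the FBLN2 UMIs of CT-LCG and 41.7% of those of FT-LCG, where fibroblast-like cells held 26.5% and endothelial-like cells 29.5%.

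MFAP5 was, like LUM, counted nearly always in the fibroblast-like cluster, which held 86 of its 87 UMIs (CT-LCG) and 160 of 170 (FT-LCG). Its levels were 1.79 (1.43 to 2.21) and 2.46 (2.10 to 2.88). CCDC80, a secreted matrix-associated protein, had 3.80 (3.27 to 4.40) and 5.21 (4.67 to 5.79) in fibroblast-like cells, from 183 and 338 UMIs. By the mean of both libraries its next cluster was endothelial-like, where CT-LCG had 2 UMIs and FT-LCG 117, levels of 0.10 (0.01 to 0.35) and 1.25 (1.04 to 1.5). In FT-LCG endothelial-like cells held 21.2% of all CCDC80 UMIs, against 0.995% in CT-LCG.

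**Figure D3:**
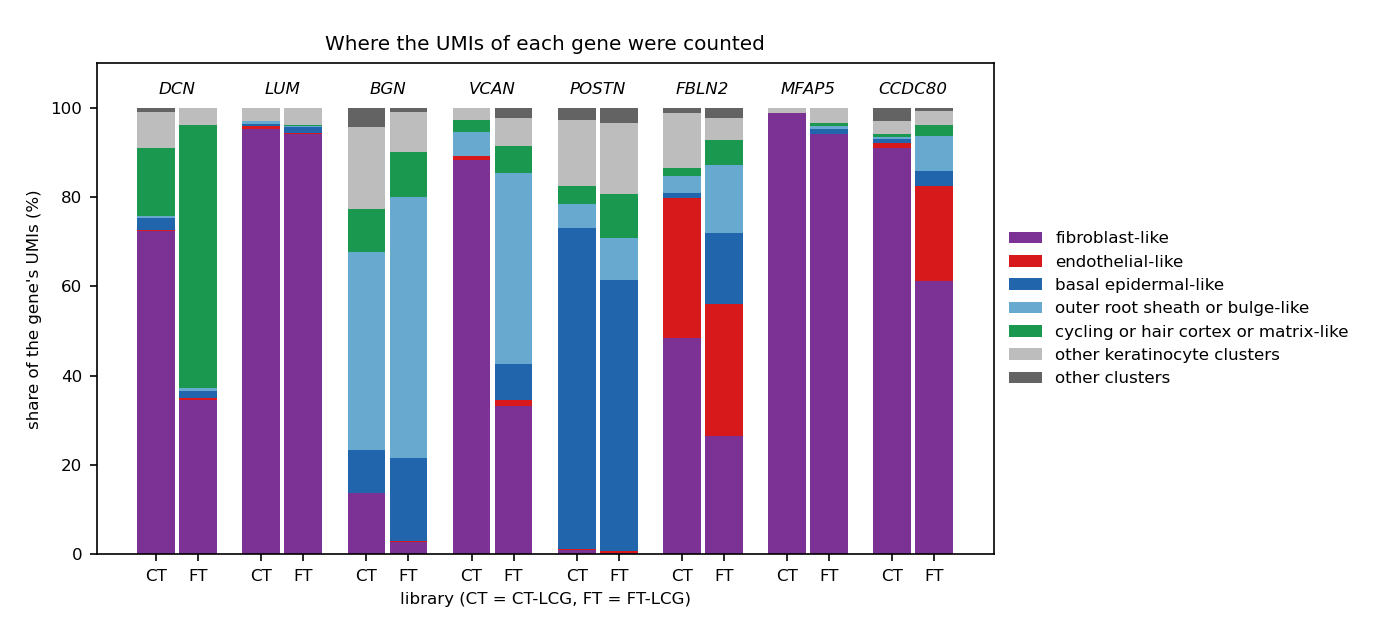
Share of the UMIs of each gene (vertical axis, percent of that gene's UMIs in all kept cells) counted in each group of clusters (colours), with CT-LCG and FT-LCG bars side by side. LUM and MFAP5 bars were at least 94.1% fibroblast-like in both libraries, POSTN and BGN bars mostly keratinocyte, and the fibroblast-like part of DCN was 72.5% in CT-LCG and 34.6% in FT-LCG.

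Shares of cells with a UMI were compared with each cell thinned to 1000 UMIs, since deeper cells show more genes. DCN was then found in 19.4% (12.1 to 28.6%) of 98 fibroblast-like cells of CT-LCG and in 36.1% (27.6 to 45.3%) of 122 of FT-LCG, and unthinned in 42.6% and 43.5%. The other 7 genes lay between 6.12% and 14.3% of the CT-LCG cells and between 13.9% and 25.4% of the FT-LCG cells. As background, granular layer-like cells with median depths of 24067 and 15407 UMIs, against 4356 and 3981 in fibroblast-like cells, had thinned DCN in 0 of 113 and 0 of 325 cells, which allows shares of up to 2.65% and 0.923%. POSTN was the highest there with 2.65% and 4.31%. For 7 of the 8 genes the thinned share in fibroblast-like cells was above this background with intervals apart in both libraries. The exception was MFAP5, whose 6.12% (2.28 to 12.9%) in CT-LCG overlapped. The share of all genes that pass this rule was not counted, so it only describes the 8. The rule does not test free RNA either. Each of the 8 genes had a lower level in granular layer-like cells than in the barcodes that were not kept. The fibroblast-like level of POSTN, 1.43 (CT-LCG) and 4.61 (FT-LCG), was also below that of those barcodes, 3.33 and 8.97. The other 7 genes were above it. In unthinned cells MFAP5 was above the granular layer-like background in both libraries. POSTN was then the exception, with 30.7% (21.9 to 40.7%) against 15.9% (9.72 to 24.0%) in CT-LCG. Thinned BGN was found in 14.9% (8.39 to 23.7%) and 23.5% (20.2 to 27.0%) of outer root sheath or bulge-like cells, and unthinned in 32.6% and 48.8%. Thinned POSTN was in 52.7% and 76.3% of CCL27/KRT14 basal cells, and unthinned in 87.6% and 94.6%. Of the 8 genes, the median fibroblast-like cell had 2 with a UMI in either library, 10 of 101 and 29 of 138 cells had at least 5, and 24 and 26 cells had none.

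The cells of the fibroblast-like and contractile-like clusters were clustered again to see which of them carried the genes. The fibroblast-like cluster of CT-LCG consisted mostly of dermal papilla-like cells, led by RSPO3, SOX18 and WIF1, with 65 of 101 cells, and only 9 cells were of a fibroblast-like sub-cluster led by the collagens and PI16. In FT-LCG 14 of 138 cells were dermal papilla-like, 41 fibroblast-like and 33 contractile-like, led by RGS5 and ADAMTS4. Cells of keratinocyte-type sub-clusters lay in the fibroblast-like cluster too. In FT-LCG these were 15 STAR/KRT19, 10 THBS1/ETS2 and 3 SYNE2/KRTDAP cells and 1 basal epidermal-like cell. CT-LCG had 3 THBS1/ETS2 cells, 1 SYNE2/KRTDAP cell and 1 basal epidermal-like cell. The levels of the whole cluster include them. The summed fibroblast list separated the fibroblast-like sub-cluster, with 889 and 772 UMIs per 10000, from the dermal papilla-like cells, with 24.6 and 18.6.

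In the fibroblast-like sub-cluster DCN reached 158 (148 to 169) in the 9 CT-LCG cells and 75.4 (71.1 to 79.9) in the 41 FT-LCG cells. In dermal papilla-like cells DCN was 2.51 (2.00 to 3.09) and 0.71 (0.23 to 1.65), a 63.2-fold and a 107-fold difference. LUM had 28.5 and 26.1 in the fibroblast-like sub-cluster, with 6 and 0 UMIs in dermal papilla-like cells, 163-fold higher in CT-LCG and at least 61.7-fold higher in FT-LCG against a floor of 3 UMIs in that sub-cluster. FBLN2 was 24.2 and 20.7 times higher (the latter against 3 UMIs, with an interval of 6.94 to 102), and CCDC80 38.9 and 29.3 times. MFAP5 had 85 and 159 UMIs in the fibroblast-like sub-cluster against 1 and 0.

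VCAN was found in both fibroblast-like and dermal papilla-like cells. Its level was 5.26 (3.49 to 7.60) and 5.98 (4.82 to 7.33) in the fibroblast-like sub-cluster and 1.86 (1.44 to 2.38) and 1.84 (0.98 to 3.14) in the dermal papilla-like cells, a ratio of 2.82 (1.74 to 4.46) and 3.26 (1.81 to 6.35). The 2 libraries thus had VCAN at overlapping levels within each kind of cell. POSTN was 1.13 (0.41 to 2.45) and 2.99 (2.19 to 3.99) in the fibroblast-like sub-cluster and 1.57 (1.18 to 2.05) and 1.41 (0.68 to 2.6) in dermal papilla-like cells. The 44 RGS5/ADAMTS4 contractile-like cells all lay in the fibroblast-like cluster. They had 3 POSTN UMIs of 42057 in CT-LCG and 99 of 170590 in FT-LCG, 8.14 times higher in FT-LCG (2.70 to 40.1). The whole cluster had 299 POSTN UMIs in FT-LCG. BGN went separate ways in the libraries. In CT-LCG it had 0 UMIs in the 9 cells of the fibroblast-like sub-cluster but 32 in the dermal papilla-like cells, a level of 0.93. The FT-LCG cells had it the other way round, with 30 UMIs and a level of 1.95 in the fibroblast-like sub-cluster and 1 UMI in the dermal papilla-like cells. The RGS5/ADAMTS4 contractile-like cells had BGN at 0.95 (0.26 to 2.44) and 2.29 (1.63 to 3.13), from 4 and 39 UMIs. Melanocyte-like cells, which also lay in the fibroblast-like cluster, had 0 UMIs of DCN, LUM, BGN and MFAP5 in both libraries.

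In the fibroblast-like cluster as a whole, 1 of the 8 genes was at least 2 times apart between the libraries: POSTN was 3.21 times higher in FT-LCG, where 9.33% of 3375 genes were at least 2 times higher in FT-LCG and 9.51% in CT-LCG. Under other settings the number of the 8 genes this far apart ran from 1 to 5, and with cells thinned POSTN was not among the 3. The share of all genes was not counted under those settings. LUM was 1.91 times higher in FT-LCG, BGN 1.75 times, and MFAP5, CCDC80 and FBLN2 between 1.33 and 1.38 times, while DCN was 0.96 and VCAN 0.85 times the CT-LCG level. Within the fibroblast-like sub-cluster alone the order was another: DCN was 0.48 times (0.43 to 0.52) the CT-LCG level, MFAP5 0.65 times (0.50 to 0.85) and CCDC80 0.73 times (0.60 to 0.89), and the ratio of LUM was 0.92 (0.76 to 1.11). The ratio of FBLN2 was 0.78 (0.57 to 1.07) and that of VCAN 1.14 (0.74 to 1.80). POSTN was 2.65 times higher in FT-LCG (1.13 to 7.61), and BGN had 30 UMIs there against 0 of CT-LCG. The fibroblast-like sub-cluster made up 8.91% of the CT-LCG cells of the whole cluster and 29.7% of its FT-LCG cells. What this mixture contributes to the differences of the whole cluster was not tested. With 9 CT-LCG cells, and 249 of the 942 DCN UMIs of the whole cluster in 1 cell, these ratios rest on few cells.

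POSTN was higher in FT-LCG in 18 of the 19 clusters, immune clusters included, with the interval of the ratio above 1 in all 18. The ratio ran from 0.42 in an inner root sheath-like cluster to 26.9 in mast cell-like cells, with a median of 3.29. The ratio of KRT14 ran from 1.48 to 16.2 with a median of 3.98, and the clusters at the ends of this range were not those at the ends of the POSTN range. In fibroblast-like cells the ratio was 3.21 for POSTN and 7.81 for KRT14. In the CCL27/KRT14 basal cells, the largest source, POSTN was 2.05 times higher and KRT14 1.48 times. In these basal cells 4 of the 8 genes had enough UMIs to be compared and 3 of them, BGN, POSTN and FBLN2, were at least 2 times higher in FT-LCG, where 6.97% of 10094 genes were. BGN had 7 and FBLN2 had 1 UMI there in CT-LCG. BGN was higher in FT-LCG in 16 of the 19 clusters, with the interval of the ratio above 1 in 8 clusters and below 1 in 1, and DCN was higher in FT-LCG in 2 of 19. The part of keratinocyte RNA in these differences was not tested.

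**Figure D4:**
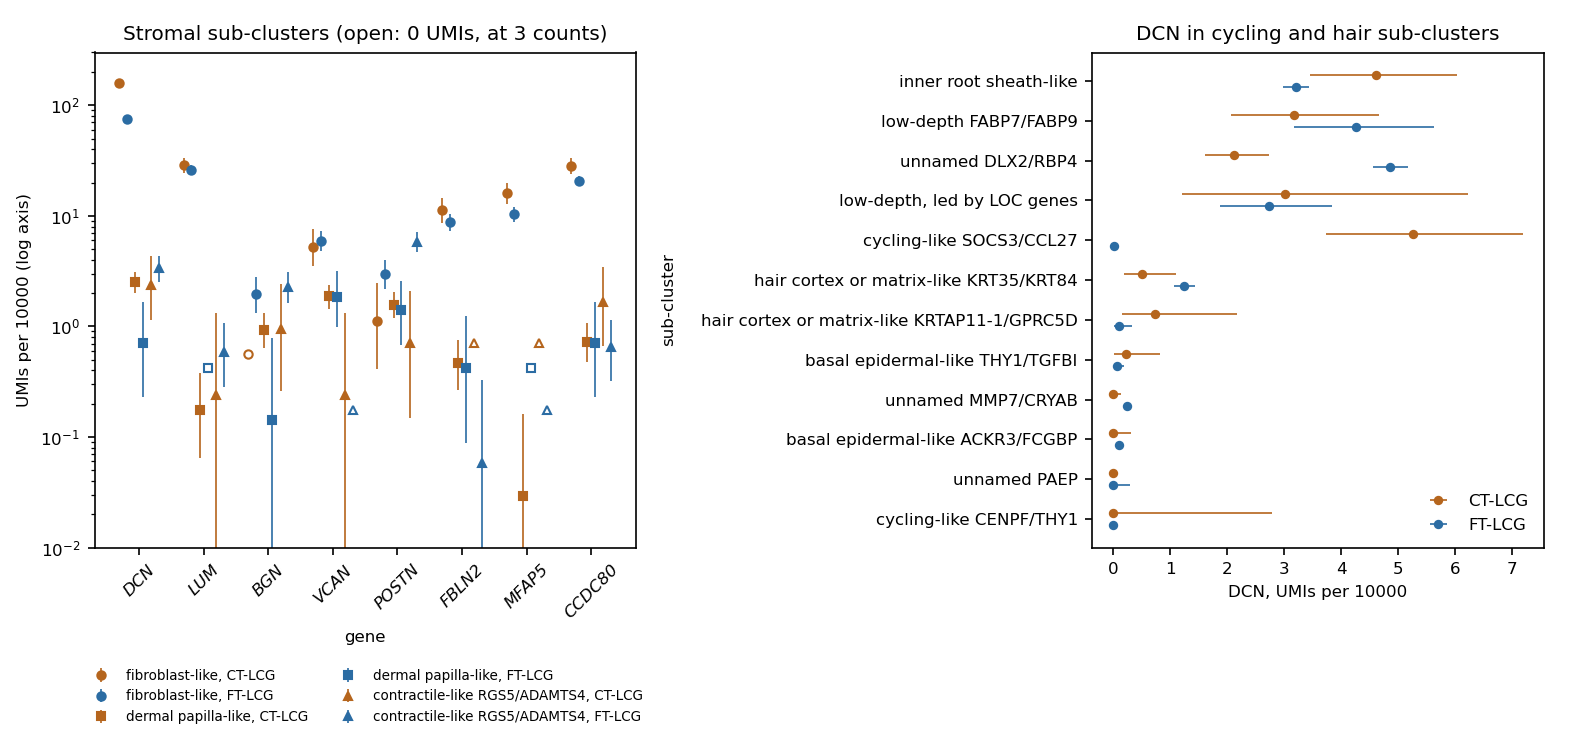
Left, levels of the 8 genes (UMIs per 10000 UMIs, log axis) in 3 stromal sub-clusters (shapes), with open symbols for 0 UMIs drawn at the level of 3 counts. Right, DCN in the sub-clusters of cycling and hair cells (linear axis); CT-LCG is orange, FT-LCG blue, and bars are exact Poisson 95% intervals. DCN stood at 158 and 75.4 in the fibroblast-like sub-cluster and at 4.61 and 3.20 in the inner root sheath-like sub-cluster. On the right, the highest level of CT-LCG was in SOCS3/CCL27 cells and that of FT-LCG in DLX2/RBP4 cells.

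The DCN of hair cells was looked at by clustering the cycling and the hair cortex or matrix-like cells again, a step added after DCN had been seen there. An inner root sheath-like sub-cluster, led by KRT25, PRR9 and TCHH, had DCN at 4.61 (3.45 to 6.03) in 41 CT-LCG cells and 3.20 (2.98 to 3.44) in 127 FT-LCG cells, from 53 and 743 UMIs. The separate main clusters called inner root sheath-like had less DCN. Its level was 0.37 and 0.32 in TCHH/KRT27 cells, 914 of CT-LCG and 1837 of FT-LCG. These cells had the lowest median depths of all clusters, 1073 and 1119 UMIs. Their DCN was near the level over all kept cells, 0.47 and 0.41, and the part of free RNA in it was not tested. FABP9/KRT27 cells had 0 DCN UMIs in both libraries. An unnamed sub-cluster led by DLX2 and RBP4, with CCND2 and PTCH1 among its leading genes, had 2.13 (1.62 to 2.74) in 11 cells and 4.86 (4.56 to 5.17) in 108 cells, from 60 and 1005 UMIs. KRT35/KRT84 cortex or matrix-like cells had 0.51 (0.19 to 1.11) and 1.25 (1.07 to 1.44). Cycling cells led by CENPF and THY1 had 0 DCN UMIs in both libraries. Low-depth cells led by FABP7 and FABP9 had 3.18 and 4.27, from 26 and 50 UMIs. The highest CT-LCG level, 5.26 in a sub-cluster led by SOCS3 and CCL27, came from 39 UMIs in 3 of 9 cells, and that sub-cluster stood at 0.03 in FT-LCG.

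Much of this DCN lay in few cells at high counts, and few of these cells had LUM or COL1A1. Of the 806 cycling and hair cells of FT-LCG, 89 had at least 5 DCN UMIs, with a median of 15 and a maximum of 125, and they held 91.5% of the DCN of these clusters. Among the 89 cells 1 had a LUM UMI, 0 had a COL1A1 UMI, 62 had KRT35 and 57 had KRT25, keratins of the hair shaft and the inner root sheath. In CT-LCG there were 9 such cells of 261, with a median of 8 and 63.3% of the DCN of these clusters, of which 0 had LUM, 1 had COL1A1 and 8 had KRT25. Of the fibroblast-like cells with at least 5 DCN UMIs, by contrast, 14 of 15 in CT-LCG and 37 of 39 in FT-LCG had COL1A1, and 10 and 28 had LUM. The keratins did not part the cells as cleanly: KRT25 was in 11 of the 15 and 15 of the 39 fibroblast-like cells, and KRT35 in 2 and 14. The fibroblast list summed to 0.106 and 0.111 UMIs per 10000 in the DLX2/RBP4 sub-cluster, with 2 and 6 of its 11 genes above 0. Thinned to 1000 UMIs, 27.3% and 25.4% of the cells of the inner root sheath-like sub-cluster had DCN, against 0 of 113 and 0 of 325 granular layer-like cells. The DCN level of the granular layer-like cluster was also below that of the barcodes that were not kept, so this comparison does not test free RNA.

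The genes with the most similar pattern over the 19 clusters were found by Pearson correlation of the log2 level, averaged over both libraries, among 11731 genes. The clusters share their libraries and depth, so r is a description only. LUM was nearest to SERPINF1, COL6A2, MFAP5, COL6A3 and CPZ (r from 0.996 to 0.997), and MFAP5 to CPZ, SERPINF1, LUM, MXRA8 and COL6A2. VCAN was nearest to MSANTD1 and MMP2, with MYH11, SYNM and C11H2orf40 next (r up to 0.97), and CCDC80 to IGF1, CCL26, WFDC1, RGS5 and ADGRA2 (up to 0.98). FBLN2 was nearest to SOX18, EBF1, COL15A1, CD34 and CDC42EP5 (up to 0.99). DCN was nearest to STEAP1, STEAP2, SAMD11, PENK and NCBP2 (up to 0.93), none of them a collagen. BGN was nearest to CXCL14, SPP1, BOC, ISM1 and ARHGAP42 (up to 0.93). POSTN was nearest to COL17A1 and COL7A1, collagens that anchor basal keratinocytes, and to TNS4, LOC102179515 and GAS1 (up to 0.95). Among the 8 genes, LUM and MFAP5 had an r of 0.997, DCN and LUM 0.78, BGN and POSTN 0.47, and POSTN and LUM 0.02. After the fibroblast-like cluster, the next highest mean levels of LUM and MFAP5 were 0.03 and 0.01, below the 0.1 added before log2. The high r values of these 2 genes therefore rest mainly on the fibroblast-like cluster.

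Other genes of the matrix were compared in the same way, by whether they were at least 4 times higher in fibroblast-like cells or in keratinocytes in both libraries. Medians of log2 ratios have 0.1 added to each level, and the 4-fold calls do not. Of the 11472 genes for which each library held 50 UMIs or more, 5.09% were higher in fibroblast-like cells and 1.37% in keratinocytes, with a median log2 ratio of 0.14 in CT-LCG and 0.12 in FT-LCG. Of the 7 lists, elastic fibre and fibulin genes had the highest median log2 ratio, 3.32 and 2.48, with 13 of 14 measured genes higher in fibroblast-like cells and FBLN1 (3.97 and 3.30 UMIs per 10000), MFAP4, MFAP2 and LOXL1 at the highest levels. MFAP3 was the exception, named after its values were seen. All 3 measured small leucine-rich proteoglycans outside the 8, ECM2, PODN and TSKU, were higher in fibroblast-like cells, with a median of 2.23 in both libraries.

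The other groups were mixed. Of 24 other matrix glycoproteins, 12 were higher in fibroblast-like cells (median 1.60 and 2.00), among them MGP at 17.0 and 27.4 UMIs per 10000, SPARC at 8.39 and 17.0 and PCOLCE at 6.36 and 6.29. The remaining 12, with SPP1, ECM1 and THBS1, passed in neither direction. Of 16 large, basement membrane and cell surface proteoglycans, 5 passed for fibroblast-like cells: SDC2, HSPG2, TGFBR3, HAPLN3 and SPOCK2, named after their values were seen. CD44, the hyaluronan receptor, was at 7.45 and 5.39 in keratinocytes and at 1.33 and 3.17 in fibroblast-like cells, without passing the fold in both. Of 28 genes that build glycosaminoglycan chains, 2 passed, CHPF and CHST11, also named after their values were seen. Of 9 proteases and inhibitors, 6 passed, with ADAMTS4, a protease that cleaves versican, at 4.36 and 9.91 and TIMP2 at 7.92 and 5.39. ADAMTS4 was also a leading gene of the RGS5/ADAMTS4 contractile-like cells, which all lay in the fibroblast-like cluster. Of 11 receptors 1 passed, ITGA5, named after its values were seen, and the median ratio was -0.02 and 0.00. No list had a gene that passed for keratinocytes in both libraries, and neither did POSTN. Some listed genes had a higher level in keratinocytes in both libraries, as POSTN did, among them CD44 and SDC1, the latter at 2.21 and 2.73 in keratinocytes and at 1.14 and 1.40 in fibroblast-like cells.

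**Figure D5:**
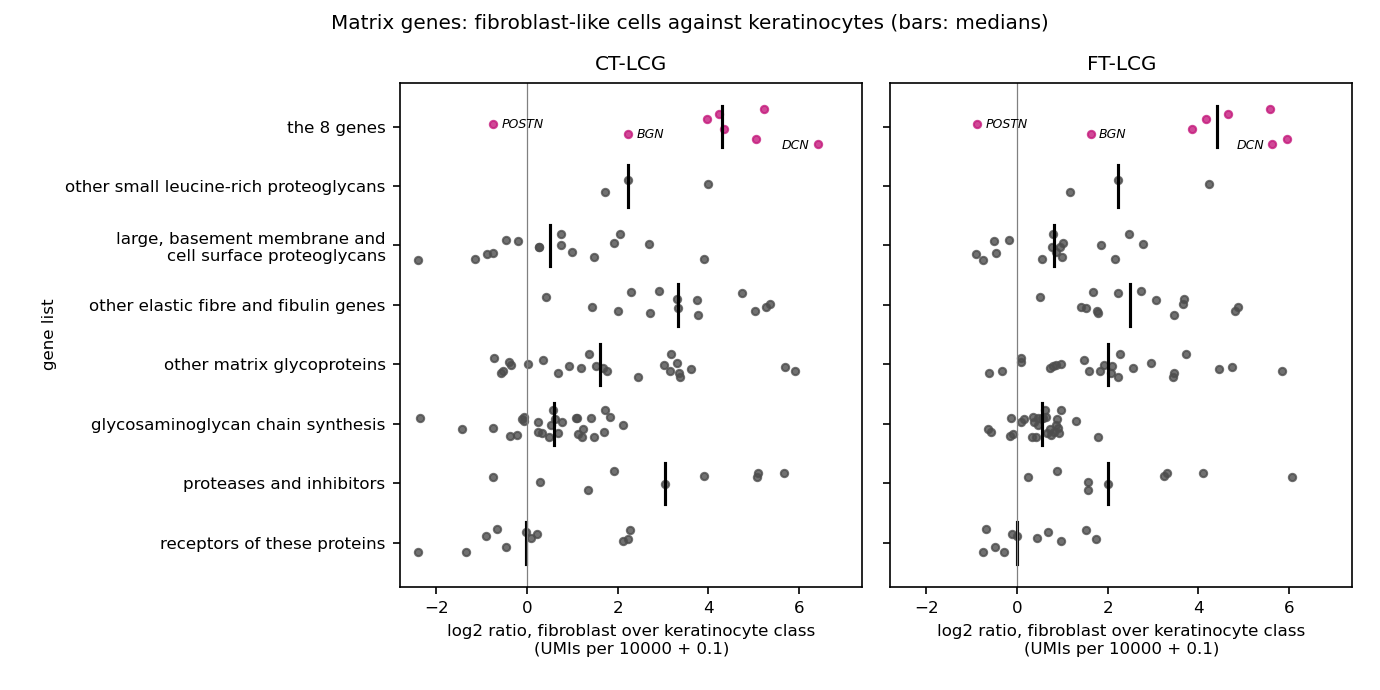
Log2 ratio of the level in fibroblast-like cells to that in the keratinocyte class (horizontal axis, 0.1 added to each level) for every measured gene of each list (rows), with CT-LCG left and FT-LCG right; points are genes and bars medians. POSTN lies to the left of 0 and BGN to the left of the other 6 genes in both libraries, and elastic fibre genes lie further right than chain synthesis genes and receptors.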

How the data were processed

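Single-cell RNA sequencing of 2 goat skin samples was analysed. The deposited values are UMI counts for each gene in each barcode, which came from Cell Ranger (version 3.0.2 in the file header) and which the authors did not normalize, both libraries in 1 matrix. Their table names the cells they kept, and each cell's library. The paper describes a filter on the number of genes and on the mitochondrial share. Their notes also name bcl2fastq and Seurat 3.1.1. Those notes name a human and a mouse genome build, and a goat build is not given in the sources used here. Gene symbols are those of the files. The members, gene lists and tests were chosen with earlier results of these data known.

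Each cell was brought to a total of 10000, and logs were taken. From 2000 variable genes without the 8 genes and the lists (173 genes left out), 10 principal components were corrected for library with Harmony, rewritten in numpy, and clustered (Leiden, 20 neighbours, resolution 1). Clusters were named from marker lists, needing 3 detected markers, by a rule written after names had been seen, so names are descriptions. All 19 clusters had at least 20 cells in each library and were ranked by the mean of both libraries. Scrublet called 0 doublets in either library, and so had not worked here. Shares used cells thinned to 1000 UMIs, and shallower cells were left out. Ratios have exact conditional intervals, for counting error only. A floor is 3 counts. In the 4-fold calls the lower class counted at least as 3 UMIs. Comparisons across all genes needed 50 UMIs (in each library for the lists, summed over the libraries for FT-LCG against CT-LCG), and no model was fitted, since each type has 1 library. Genes named beside those said to be named after their values were seen are the 8, the 5 most like each (among genes with 200 UMIs, 0.1 added before log2), and up to 4 of each list with the largest level in each class.

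The clustering and the ratios were tested on simulated data, where each cluster held cells of 1 type but types could split by depth. The 6 simulated types, of similar size, came out as 12 clusters, with an adjusted Rand index (agreement with the true types) of 0.64. Free RNA, doublets and types of few cells were not simulated, so the test cannot show how they were handled.

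Alternatives were resolutions of 0.5 and 1.5, 20 principal components, 3000 variable genes, the 8 genes and lists allowed among them, no Harmony, another seed, a minimum of 1000 genes a cell, levels from thinned cells or averaged over single cells, 10% free RNA subtracted, the highest 5% of doublet scores left out (158 and 422 cells), and each library left out. The fibroblast-like sub-cluster alone and the hair sub-clusters were added after seeing the data. The tools were scanpy 1.11.5, leidenalg 0.10.2, scikit-learn 1.9.0, igraph 0.11.9, scipy 1.17.1, numpy 2.4.6, matplotlib 3.10.9 and pandas 2.3.3 under Python 3.11.15.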

Additional observations from a re-analysis of the deposited data

Results flagged for a closer look

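UMIs of the 8 genes were also counted in the barcodes that were not kept, 2659 of CT-LCG and 1589 of FT-LCG, which no comparison above uses. They are listed because they exceed the 3 counts that a count of 0 allows. In CT-LCG there were 659 UMIs of POSTN, 87 of DCN, 51 of BGN, 20 of FBLN2, 12 of CCDC80, 10 of LUM and 4 of MFAP5, with 2 of VCAN below that limit. In FT-LCG there were 894 of POSTN, 43 of BGN, 37 of DCN, 19 of FBLN2, 13 of CCDC80, 9 of LUM and 8 of VCAN, with 2 of MFAP5 below it. Per 10000 UMIs of these barcodes, POSTN was at 3.33 and 8.97, BGN at 0.26 and 0.43 and DCN at 0.44 and 0.37, and over the kept cells the same levels were 2.43 and 8.56, 0.09 and 0.36, and 0.47 and 0.41.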

How the results depend on the processing

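The counts of genes at least 4 times higher in fibroblast-like cells were 6 or 7 in each library under 13 alternatives, and 5 or 6 genes were highest there under 14, the sixth being FBLN2; leaving out 1 library gave 5 to 6. The ratios of fibroblast-like cells to keratinocytes of BGN and POSTN kept their direction wherever they had a value. The ratios of FT-LCG to CT-LCG of LUM, MFAP5, CCDC80 and FBLN2 turned in the fibroblast-like sub-cluster alone, to 0.92, 0.65, 0.73 and 0.78. That of VCAN turned the other way, to 1.14. The sub-cluster intervals of LUM, FBLN2 and VCAN included 1. The log2 ratio of BGN in CT-LCG was 2.43 in thinned cells and 1.72 as a mean over cells, and had no value for the fibroblast-like sub-cluster alone, with 0 UMIs; in FT-LCG it was 2.45 in that sub-cluster. The log2 ratio of POSTN in CT-LCG was -0.30 in thinned cells; in FT-LCG it was -0.53 with 20 principal components, -0.52 in cells with at least 1000 genes, -1.25 as a mean over cells and -1.52 in the sub-cluster alone. The number of genes at least 2 times apart between the libraries was the least stable: 2 at a resolution of 0.5 and with the 8 genes among the variable genes, 5 with 20 principal components and without Harmony, 3 in thinned cells, where POSTN was not among them, 4 as a mean over cells and 3 in the sub-cluster alone. The causes of these moves were not tested, and the share of all genes past each fold was counted under the main settings only. No paired analysis was possible because there is 1 library per fibre type. Depth limits what 0 UMIs in 9 CT-LCG fibroblast-like cells can show.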
